A study of Mus musculus with 12 samples.

Results

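Of 4753 ac4C peaks deposited in 6 lists from mouse peritoneal macrophages, 777 (16.3%) were centred in an internal exon. A peak was counted here when the authors' annotation placed its centre in an exon carrying a number, and when no annotation of the same peak placed it in an untranslated region (UTR) or in a first or last exon named as such. The tables hold 0 centres named as a first exon, so exon 1 enters by its number, and 49 of the 777 peaks had exon 1 as their lowest number. Merged over the lists wherever they overlapped by 1 base or more, the peaks made up 534 regions of 2808 in all. The peaks came from RNA immunoprecipitation (RIP-seq) of peritoneal macrophages, phagocytes of the abdominal cavity, kept in culture with interferon-γ (IFN-γ) for 0, 24 or 48 h. The pull-down groups were ac4C RIP at 0, 24 and 48 h, with 2 samples and 2 peak lists each, and a total RNA group of 2 samples stood beside each of them, 12 samples in all. The labels give IFN-γ as the treatment of every group, the 0 h groups included, and give no strain, age or genotype. Cells kept as long without IFN-γ are not among the groups, so its effect and that of time in culture cannot be told apart.

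N4-acetylcytidine (ac4C) is cytidine carrying an acetyl group, written by the acetyltransferase NAT10 into ribosomal RNA, transfer RNA and, in mammalian cells, messenger RNA. In messenger RNA it has been reported within coding sequence, where it was linked to translation and to transcript stability. Internal exons hold most of the coding sequence of a spliced message, whereas the 3′ UTR lies mostly in the last exon. IFN-γ is the cytokine that drives classical activation of macrophages, with antigen presentation and interferon-induced genes as its best known programme.

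A list holds regions whose pull-down signal the peak caller put above that of a control. Fold enrichment, p and q of a peak are the authors' values and move with the depth of its list, and no test was made of a single peak's values between lists. Each list carries an hour but no sample name, so the numbers 1 and 2 of the lists have no order and pair nothing. Separate animals or cultures are not mentioned for the samples of a group, so p-values cover only how far these lists differ, and that difference may be technical. The depth of a library is not given, but fold and p together returned the pull-down fragments and the control coverage (input coverage) at every summit. The lowest input coverage at any summit of a list was taken as a stand-in for its input depth. By that estimate the input depth was 100% and 91.4% of the maximum in the 0 h lists, 73.7% and 80.8% in the 24 h lists, and 57.2% and 44.5% in the 48 h lists. Of 8 macrophage marker genes 2 had a peak anywhere, Itgam and Lyz2, and 0 had one in an internal exon. Of the markers of 7 other cell types, Wt1 of the mesothelial list had a peak outside internal exons, and peaks do not measure expression, so the cell type could not be checked from these lists.

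Internal-exon peaks were about as many at 24 h as at 0 h while the other peaks were fewer. They numbered 141 and 139 in the 0 h lists, 150 and 150 in the 24 h lists, and 127 and 70 in the 48 h lists. Peaks centred in 3′ UTRs outnumbered them in every list, and their share was 12.3% (95% Wilson interval 10.5% to 14.3%) and 14.7% (12.6% to 17.1%) in the 0 h lists, 20.7% (17.9% to 23.8%) and 23.2% (20.1% to 26.6%) in the 24 h lists, and 18.8% (16.1% to 22.0%) and 11.5% (9.17% to 14.2%) in the 48 h lists. These intervals cover counting error only. Both 24 h lists had a higher share than every other list, and the 48 h lists differed from each other more than the lists of any other time, with 48 h list 2 the lowest of the 6 in number and in share.

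**Figure D1:**
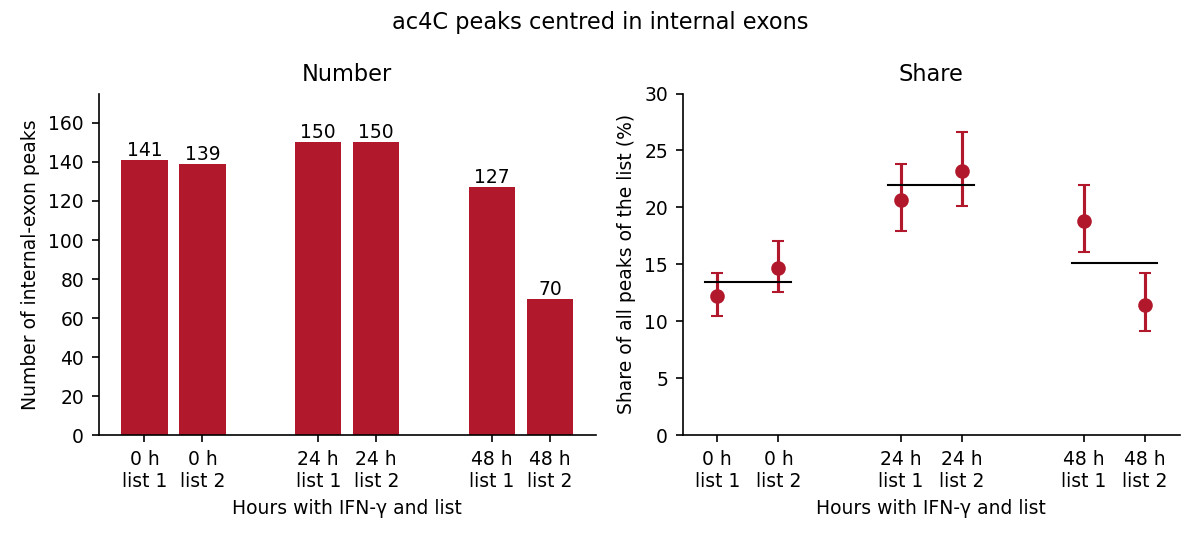
The left panel plots the number of internal-exon peaks in each of the 6 lists and the right panel their share of all peaks of the list in percent, with 95% Wilson intervals as bars and the mean of each time as a horizontal line. Both 24 h lists hold 150 peaks and the highest shares, and the 48 h lists lie apart at 18.8% and 11.5%.

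Against 0 h, the number of internal-exon peaks averaged 150 ± 0 at 24 h and 140 ± 1.41 at 0 h (SD, n = 2 lists each), a log2 ratio of 0.10, while the other peaks averaged 535.5 ± 55.9 at 24 h and 908.5 ± 143.5 at 0 h (SD, n = 2 each), a log2 ratio of -0.76. At 48 h internal-exon peaks averaged 98.5 ± 40.3 (SD, n = 2), a log2 ratio of -0.51 to 0 h, against -0.74 for the other peaks, which averaged 544 ± 4.24 (SD, n = 2). The share was 22.0 ± 1.79% at 24 h and 13.5 ± 1.73% at 0 h (SD, n = 2 lists each), a difference of 8.48 percentage points. That difference was larger than the spread within each time, but 2 lists against 2 cannot go below p = 0.333, and it stood at that value (two-sided exact permutation test, adjusted p = 0.833 over 15 tests). The share at 48 h was 15.1 ± 5.22% (SD, n = 2), 1.68 points above 0 h (exact permutation p = 1) and 6.81 points below 24 h (exact permutation p = 0.333), a spread too wide to place 48 h on either side of 0 h. Without 48 h list 1 the difference of 48 h from 0 h was -2.02 points, and without 48 h list 2 it was 5.37 points. Over the same lists the share of 3′ UTR peaks averaged 52.9% at 0 h, 40.5% at 24 h and 52.9% at 48 h, and the share of last-exon peaks 17.3%, 19.4% and 16.8%. Both the 24 h and the 48 h comparison use the same 0 h lists.

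The higher share at 24 h kept its sign under each stricter threshold tried, but its size did not hold: at a q of 1e-05 or less it was 1.17 points above 0 h (exact permutation p = 1). Among peaks with a q of 0.05 or less, 48 and 42 lay in internal exons in the 0 h lists, 39 and 40 in the 24 h lists, and 31 and 12 in the 48 h lists. Their share of such peaks was 15.4 ± 2.26% at 24 h, against 8.50 ± 0.693% at 0 h (SD, n = 2 lists each), and at 48 h it was 8.30 ± 4.15% (SD, n = 2). The pull-down depth was estimated from the same lowest input coverage and the factor that scales the fragments of each list. It was 91.5% and 78.0% of its maximum in the 0 h lists, 100% and 98.0% in the 24 h lists, and 78.0% and 68.5% in the 48 h lists. For matched input coverage, the fragments and the input coverage of every summit were both scaled by the estimated input depth relative to the shallowest list. Peaks still at a p of 0.005 or less were kept, and the share at 24 h was then 8.58 points above 0 h. This scaling did not equalise the pull-down depth. With each list shortened to its 611 peaks of smallest p, the length of the shortest list, the number of internal-exon peaks had a log2 ratio of 1.20 at 24 h and 0.68 at 48 h to 0 h, against 0.10 and -0.51 as deposited. This cut fell hardest on the 0 h lists, which held 1151 and 946 peaks, against 611 to 725 in the later lists. Internal-exon peaks ranked low by p in the 0 h lists, at median percentiles of 31.5 and 30.7. The cut thus took more of them from 0 h, and these ratios are no result about time.

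Within every list, internal-exon peaks were narrower and rested on fewer fragments than the other peaks. Their median width was 224 and 229 bases in the 0 h lists, 222 and 223 in the 24 h lists, and 208 and 217 in the 48 h lists, against 280 and 281, 270 and 265.5, and 245 and 263 for the other peaks of the same lists. Exactly the median width recurred among the peaks of a list. It was 224 bases for Spop exon 4, Tec exon 18 and Eif3a exon 16 in 0 h list 1, and 217 bases for Sf3b1 exon 2 and Kif5b exon 12 in 48 h list 2. Whether a smallest width per list sets these medians was not tested. The median width was lower in 6 of 6 lists, by 46.9 bases on average (two-sided exact sign-flip permutation test over the 6 lists, p = 0.031, the smallest it can give, adjusted p = 0.0375 over 6 tests). The median number of pull-down fragments at the best summit of an internal-exon peak was 32 and 23 in the 0 h lists, 31.5 and 28 in the 24 h lists, and 31 and 31.5 in the 48 h lists, against 46 to 59 for the other peaks. The input coverage at the same summits had medians of 4 and 3 in the 0 h lists, 2 and 2 in the 24 h lists, and 2 and 1 in the 48 h lists, against 3.04 to 7 for the other peaks. Both were lower in 6 of 6 lists, by 23.5 fragments and by 2.84 units of input coverage on average (exact sign-flip permutation p = 0.031 each, adjusted p = 0.0375). Fragments and input coverage were recovered from fold and p, so these tests and those of p and q below are not independent of each other.

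Fold enrichment did not separate the classes as deposited, whereas the authors' p and q did. The median fold of internal-exon peaks lay between 2.94 and 3.45 over the lists, and the mean difference from the other peaks was 0.04 on the log2 scale (exact sign-flip permutation p = 0.156, higher in 5 of 6 lists). With the mean of the log2 fold in place of the median it was 0.0546 (exact sign-flip permutation p = 0.031). The percentile of −log10 p within the list averaged 34.6 for internal-exon peaks and 53.3 for the others (exact sign-flip permutation p = 0.031, adjusted p = 0.0375). Peaks at a q of 0.05 or less made up 17.1% to 34.0% of the internal-exon peaks of a list, against 39.2% to 54.5% of the other peaks, lower in 6 of 6 lists, with a mean difference of -19.1 points (exact sign-flip permutation p = 0.031, adjusted p = 0.0375). A q of 1 was given to 39.7% and 45.3% of the internal-exon peaks in the 0 h lists, 52.7% and 58.7% in the 24 h lists, and 52.0% and 57.1% in the 48 h lists, against 22.9% to 41.3% of the other peaks. The width difference was smaller among stronger peaks. At a fold of 4 or more it was -24.8 bases and still passed the test (exact sign-flip permutation p = 0.031), whereas it was -18.4 bases at a q of 0.05 or less (exact sign-flip permutation p = 0.125) and -4.75 bases at 1e-05 or less (exact sign-flip permutation p = 0.531).

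**Figure D2:**
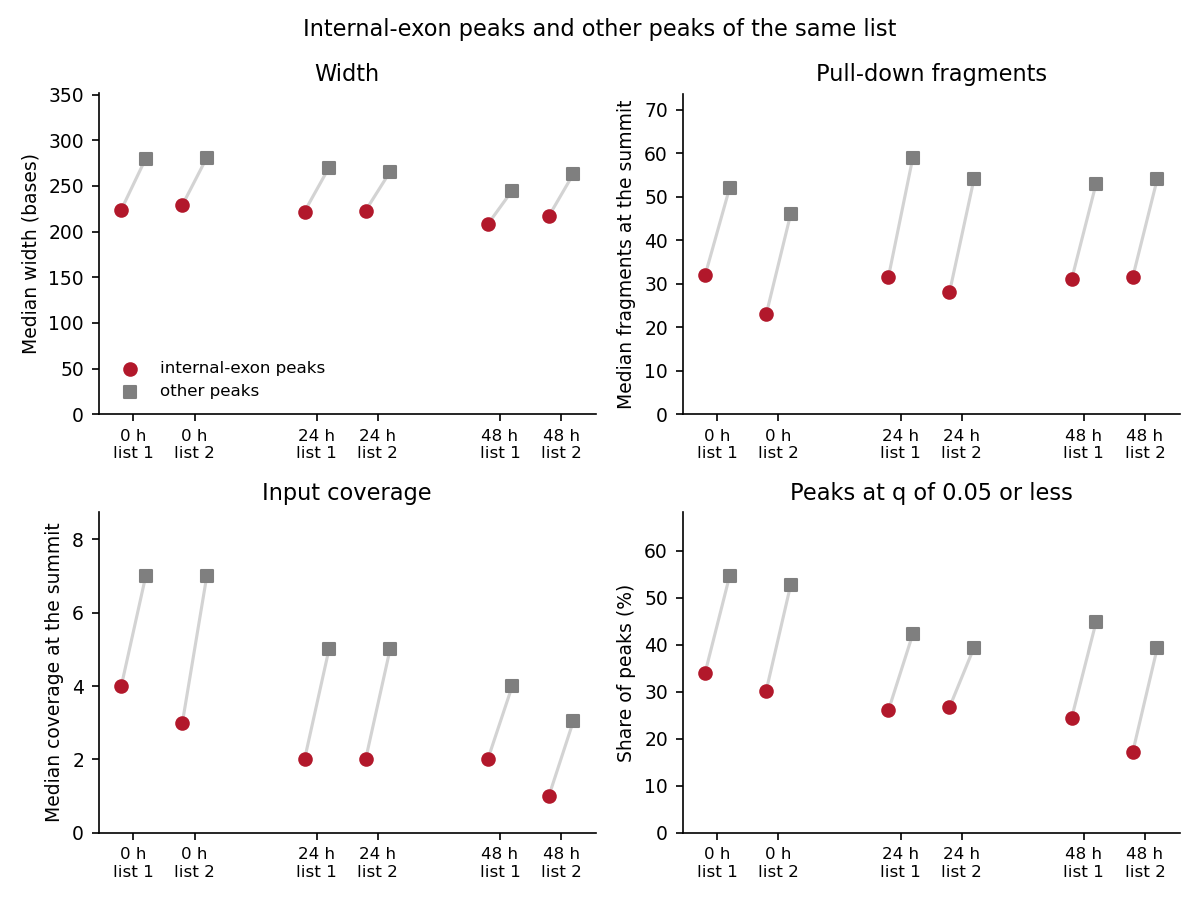
Each panel sets internal-exon peaks (red circles) beside the other peaks of the same list (grey squares): median width in bases, median pull-down fragments and median input coverage at the best summit, and the share of peaks at a q of 0.05 or less in percent. In all 4 panels the red circle lies below the grey square in 6 of 6 lists.

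Exons 2 to 5 held more of the peaks than any other class of exon number, and most peaks reached beyond the exon they were centred in. The median exon number was 5 and 6 in the 0 h lists, 5 and 5 in the 24 h lists, and 5 and 6 in the 48 h lists, and no difference between times passed the test (exact permutation p = 1 in each of the 5 tests). Peaks above exon 10 numbered 29 and 43 in the 0 h lists, 39 and 33 in the 24 h lists, and 38 and 19 in the 48 h lists. Exon numbers count from the start of the gene in the authors' annotation, and a long gene has more exons to offer, so they give no position along the message. A start or an end inside an intron was annotated for 70.9% to 80.0% of the internal-exon peaks of a list, and 18.6% to 24.1% lay wholly within 1 exon.

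**Figure D3:**
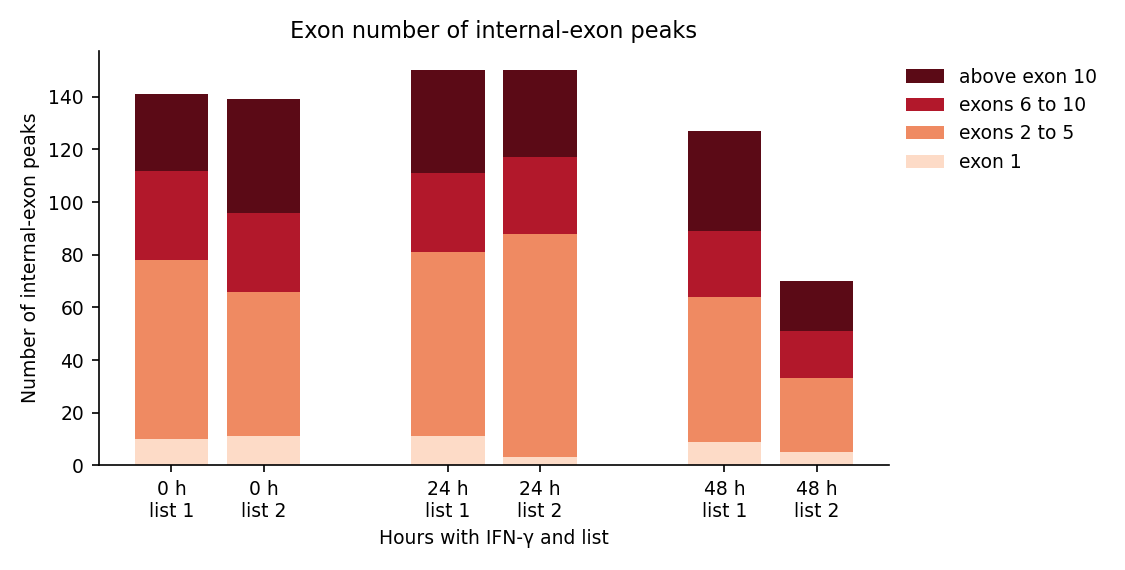
The stacked bars give the number of internal-exon peaks per list by the lowest exon number of the peak, in 4 classes (exon 1, exons 2 to 5, exons 6 to 10 and above exon 10). Exons 2 to 5 are the most frequent class in every list. Lists of the same time differ, with 70 and 85 peaks in exons 2 to 5 and 11 and 3 in exon 1 in the 24 h lists.

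The highest exon numbers belonged to genes of very large proteins. Macf1 (ENSMUSG00000028649), a linker of actin filaments and microtubules, had a peak in exon 50 in 0 h list 2 at a fold of 3.31 and a q of 1. Dync1h1 (ENSMUSG00000018707), the heavy chain of cytoplasmic dynein, had one in exon 46 in 48 h list 1 at a fold of 3.66. Tpr (ENSMUSG00000006005), a filament of the nuclear pore basket, had exon 41 in 0 h list 2, 24 h list 1 and 48 h list 1 at folds of 5.40, 3.18 and 2.68, and exon 34 in 24 h list 1 at 5.22. Myh9 exon 33 followed, in 0 h list 1 alone.

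The 777 peaks lay on 415 genes, nearly all of them protein-coding. By symbol, 408 genes (98.3%) matched RefSeq, 402 as protein-coding, 5 as long noncoding RNA (Gm44505, Epb41l4aos, 2410006H16Rik, Gm2245 and Snhg5) and 1 as a pseudogene (Gm13712). A further peak in a UTR or a last exon was found in 185 genes (44.6%). A single list held the internal-exon peaks of 265 genes, 4 or more lists those of 35 genes, and all 6 lists those of 5 genes, namely Hspa4, Sh3glb1, Ncl, Anp32b and Eef1b2. Strand is not given for the peaks, so overlapping genes cannot be told apart, and 10 peaks were annotated to exons of more than 1 gene.

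Several genes carried separate internal-exon regions. Of the 415 genes 83 had 2 or more regions and 27 had 3 or more. Hspa4 (ENSMUSG00000020361), a chaperone of the Hsp110 family that exchanges nucleotide on Hsp70, had 5 regions in exons 5, 7, 15, 16 and 18 and 13 peaks over the 6 lists. Its exon 7 region was held by 24 h list 1 and 0 h list 1, at folds of 5.05 and 5.43, and its exon 5 region by 0 h list 1 only. Eif3a (ENSMUSG00000024991), the largest subunit of the translation initiation factor eIF3, had 5 regions in exons 16, 17, 19, 20 and 21. Exons 19 and 20 of Eif3a were held by 0 h list 2 only, at folds of 3.30 and 4.74. Myh9 (ENSMUSG00000022443), the heavy chain of nonmuscle myosin, had 5 regions in exons 22, 24, 26, 31 and 33, all of them with a peak in a 0 h list. Tpr had 5 regions in exons 6, 12, 26, 34 and 41, and Sh3glb1 had 4. The exons of these genes did not share 1 pattern over the lists.

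Most internal-exon regions were seen in 1 list. Of the 534 merged regions, 369 (69.1%) had a peak in 1 list, 99 in 2, 35 in 3, 20 in 4, 6 in 5 and 5 in all 6, where any overlapping peak counted. A peak in 2 or more lists was found for 165 regions (30.9%), against 38.1% of the 2274 regions without an internal-exon peak and 36.8% of all 2808. A peak in 4 or more lists was found for 31 (5.81%), against 9.06% of the regions without an internal-exon peak. Regions seen in 1 list numbered 62 and 65 in the 0 h lists, 84 and 80 in the 24 h lists, and 56 and 22 in the 48 h lists. In 24 of the 534 regions the peak of another list was centred elsewhere, mostly in the neighbouring intron. When peaks below a fold of 4 were left out, 14.7% of the internal-exon regions were shared by 2 or more lists. The share over all regions is not given at that fold, so this lower value is no result about internal exons.

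**Figure D4:**
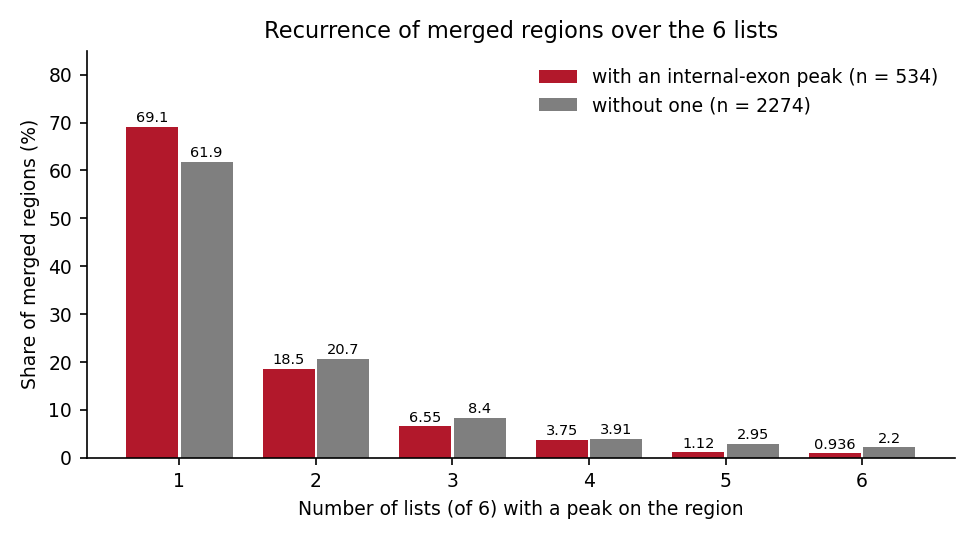
The bars give the share of merged regions in percent by the number of lists, of 6, that had a peak on them, for the 534 regions with an internal-exon peak (red) and the 2274 without one (grey). The red bar is the taller one at 1 list, 69.1% beside 61.9%.

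The 11 internal-exon regions found in 5 or 6 lists lay on 10 genes of varied function. Ncl (ENSMUSG00000026234), nucleolin, an abundant RNA-binding protein of the nucleolus, had the highest-ranked region found in all 6 lists, in exon 4 at chr1:86284221-86284485 (GRCm39). Its fold was 3.64 and 3.18 in the 0 h lists, 2.65 and 2.63 in the 24 h lists, and 4.04 and 4.75 in the 48 h lists, with −log10 q between 12.0 and 25.9. The summit held 206 and 195 pull-down fragments in the 0 h lists, 356 and 316 in the 24 h lists, and 355 and 271 in the 48 h lists, over an input coverage of 24 and 28, 39 and 39, and 25 and 14. Every list thus gave this exon a q far below the threshold of 0.05, and the later lists had more fragments than the 0 h lists before any scaling for depth. The neighbouring exon 3 of Ncl at chr1:86284678-86285004 was also held by 6 lists, at folds of 3.42 and 2.47 in the 0 h lists, 2.77 and 1.61 in the 24 h lists, and 2.40 and 2.65 in the 48 h lists. The other regions found in 6 lists were exon 10 of Hnrnpu, exon 3 of Sh3glb1 and exon 3 of Eef1b2.

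Hnrnpu (ENSMUSG00000039630), a nuclear RNA-binding protein, had its region in exon 10 at chr1:178158705-178158945. The centre lay in the exon in 4 lists, at folds of 2.22 in 0 h list 2, 3.69 in 24 h list 2, and 2.47 and 2.59 at 48 h, and in an intron in 0 h list 1 and 24 h list 1. Eef1b2 (ENSMUSG00000025967), an exchange factor of translation elongation, had exon 3 at folds of 1.83 and 1.78 in the 0 h lists, 1.86 and 2.91 in the 24 h lists, and 1.49 and 2.01 in the 48 h lists. Of these 6 peaks of Eef1b2, the one of 24 h list 2 alone passed a q of 0.05.

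Among the 6 regions found in 5 lists, Ssb exon 11 ranked highest. Ssb (ENSMUSG00000068882) encodes La, which binds the ends of nascent small RNAs, and the centre of its region lay in exon 11 in 24 h list 2 at a fold of 3.91, and in an intron in 0 h list 1, 24 h list 1 and both 48 h lists, at folds of 1.93, 3.51, 4.72 and 3.68. Prrc2c (ENSMUSG00000040225) had exon 12 at folds of 2.71 and 3.54 at 0 h, 2.92 and 3.09 at 24 h, and 2.81 in 48 h list 2, and its strongest peak lay wholly within that exon. Msrb1 (ENSMUSG00000075705), a methionine sulfoxide reductase, had exon 3 in each list but 0 h list 1, at folds of 2.00 to 2.75. Anxa5 (ENSMUSG00000027712), a calcium-dependent binder of phosphatidylserine, had exon 5 in each list but 48 h list 2, at folds of 1.85 to 2.58. Hspa4 exon 16 had folds of 2.64 in 0 h list 1, 2.62 and 2.31 at 24 h, and 2.23 and 6.60 at 48 h, and no peak in 0 h list 2. Ssrp1 (ENSMUSG00000027067), a subunit of the histone chaperone FACT, had exon 14 in each list but 48 h list 2, with the centre in an intron in 0 h list 2. Msrb1 and Ssrp1 passed a q of 0.05 in 24 h list 2 alone, and Anxa5 exon 5 in 24 h list 1 alone. Hspa4 exon 16 passed it in 48 h list 2 alone. By contrast, Ssb exon 11 passed it in every 24 h and 48 h list, and Prrc2c in both 0 h lists and 24 h list 2.

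Peaks present in both lists of 1 time and absent from both of another were counted as lost or gained, any overlapping peak counting as present. Both 0 h lists held 48 internal-exon regions, and 23 of these (47.9%) were missing from both 24 h lists, against 48.3% of all merged regions that could be called. At 48 h, 25 of the 48 (52.1%) had none, against 45.5% of all. A sustained loss, meaning presence in both 0 h lists and absence from the 4 lists of the later times, was found for 17 of 48 (35.4%), against 33.0% of all. The shares of losses lie near those of all regions and are no result about internal exons. Gains at 24 h over 0 h were 14 of 37 regions (37.8%), against 22.2% of all, and gains at 48 h over 0 h were 10 of 23 (43.5%), against 28.7% of all. Between the later times, 12 of 37 regions were lost at 48 h relative to 24 h (32.4%, against 29.9% of all), and 10 of 23 were gained (43.5%, against 27.7% of all). A sustained gain, meaning presence in the 4 later lists and absence from both 0 h lists, was found for 2 of the 10 regions present in every later list (20%, against 9.46% of all). Which of losses and gains were more numerous turned with the setting. With each list shortened to 611 peaks, gains over 0 h outnumbered losses among internal-exon regions, by 19 to 9 for the 24 h lists and by 15 to 10 for the 48 h lists. At matched input coverage there were 8 gains beside 10 losses for the 24 h lists, and 14 gains beside 13 losses for the 48 h lists. As deposited, all merged regions had 43 gains beside 205 losses for the 24 h lists, and 54 beside 193 for the 48 h lists. Counts over all regions are not given for the other settings, so this turn is no result about internal exons. The 24 h and 48 h counts share the 0 h lists, and the difference from all regions was not tested. In bulk RNA, a peak with fewer fragments can reflect fewer cells of a type, less RNA per cell, less ac4C on that RNA or a shallower library, and these cannot be told apart.

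The strongest internal-exon peaks absent from all later lists lay on a chaperone gene, a cell cycle inhibitor and a lipid droplet gene. Hsp90ab1 (ENSMUSG00000023944), a cytosolic chaperone, had the first rank among internal-exon regions, with a peak in exon 6 at chr17:45881261-45881529 in 0 h list 2. Its fold was 2.37 and 2.54 in the 0 h lists, on 465 and 389 pull-down fragments over an input coverage of 85 and 71, at −log10 q of 21.6 and 22.3, and no later list had a peak there. The next-ranked sustained loss, at chr7:143013636-143014187, was annotated to exon 2 of Cdkn1c (ENSMUSG00000037664), an inhibitor of cyclin-dependent kinases, and to exon 1 of Gm44732 (ENSMUSG00000108934), which overlaps it. It had folds of 3.06 and 4.33 on 180 and 146 fragments. Plin2 (ENSMUSG00000028494), a coat protein of lipid droplets, had exon 5 at chr4:86580223-86580452 at folds of 1.87 and 4.23 on 297 and 224 fragments. These 3 were the sustained losses left at a q of 1e-05 or less, and at 0.05 or less Ddx21 joined them.

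The other named losses stood on fewer fragments. Ddx21 (ENSMUSG00000020075), an RNA helicase of the nucleolus, had exon 2 at folds of 4.17 and 2.96 on 74 and 61 fragments. Spop (ENSMUSG00000057522), a substrate adaptor of a ubiquitin ligase, had exon 4 at folds of 7.28 and 3.38 on 48 and 34 fragments. Tec (ENSMUSG00000029217), a tyrosine kinase of blood cells, had exon 18 at folds of 3.44 and 3.77. Dnase2a (ENSMUSG00000003812), the acid DNase of lysosomes, had exon 6 at folds of 2.15 and 5.85. Gspt1 (ENSMUSG00000062203), a translation release factor, had exon 4 at 3.26 and 3.45, Eif3a had exon 16 at 2.98 and 2.03, and Arglu1 (ENSMUSG00000040459) had exon 2 at 2.28 and 4.55. In Dnase2a, Eif3a and Arglu1 the peak of one of the 0 h lists had a q of 1. The remaining 7 sustained losses were Dnaja2 exon 5, Hnrnpab exon 2, Myh9 exon 24, Scaf11 exon 11, Sh3glb1 exon 2, Supt16 exon 12 and Ube2g1 exon 5. At matched input coverage 7 sustained losses were left, namely Hsp90ab1, Cdkn1c with Gm44732, Plin2, Ddx21, Spop, Tec and Gspt1.

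The sustained gains lay on a splicing factor and on an autophagy gene. Sf3b1 (ENSMUSG00000025982), a core subunit of the splicing factor SF3B, had exon 2 at chr1:55058344-55058561 at folds of 2.47 and 3.38 at 24 h and 4.16 and 5.49 at 48 h, on 47 and 38 and on 25 and 25 fragments. Its −log10 q lay between 0 and 2.08, so only 48 h list 2 passed a q of 0.05. Over the later lists in the same order, input coverage under the Sf3b1 summit was 5, 3, 1 and 0.364. The last value is the lowest input coverage at any summit of 48 h list 2. Fragments and input coverage were thus both lower at 48 h, and the part of the input in the higher folds was not tested. Sh3glb1 (ENSMUSG00000037062), endophilin B1, a membrane-curving protein of mitochondria and autophagosomes, had exon 5 at chr3:144411158-144411481 at folds of 4.00 and 3.19 at 24 h and 4.72 and 2.28 at 48 h, on 51 and 22 and on 61 and 40 fragments. Neither region kept its call at a q of 0.05 or less, where Sh3glb1 exon 3 and Ssb exon 11 met the definition instead. At matched input coverage Sf3b1 exon 2 kept its call, Sh3glb1 exon 5 lost it, and Ssb exon 11 met the definition.

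The 4 regions of Sh3glb1 differed in the lists that held them. Exon 2 had a peak in both 0 h lists and in none later, at folds of 2.14 and 2.82 and a q of 1. Exon 3 at chr3:144414914-144415200 had a peak in all 6, at folds of 1.84 and 2.01 in the 0 h lists, 2.82 and 2.42 in the 24 h lists, and 4.00 and 3.69 in the 48 h lists. The fragments under its summit were 124 and 88 in the 0 h lists, 150 and 129 in the 24 h lists, and 133 and 124 in the 48 h lists, over an input coverage of 29 and 20, 15 and 17, and 9 and 8. Thus the input coverage of exon 3 was highest in both 0 h lists and lowest in both 48 h lists, as was the estimated input depth of the lists, and its part in the folds was not tested. Exon 5 was held by the 4 later lists, and exon 8 by both 48 h lists at folds of 3.12 and 2.79, with an intron-centred peak in 0 h list 1 at 2.14.

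A further 8 named regions were gained at 1 later time, 5 of them at 24 h and 3 at 48 h. At 24 h, Ssb exon 4 was gained at a fold of 5.78 in 24 h list 2 with an intron-centred peak of 2.58 in 24 h list 1, and a peak in 48 h list 2 as well. Anxa5 exon 12 was gained at 24 h at folds of 2.30 and 2.71 on 137 and 145 fragments. Fnip2 (ENSMUSG00000061175), a partner of folliculin in nutrient signalling, had exon 14 at 3.02 and 2.61 at 24 h and 2.42 in 48 h list 1. Anp32e (ENSMUSG00000015749), a histone chaperone, had exon 4 at 2.58 and 3.69 at 24 h and 3.42 in 48 h list 1, and 4930430E12Rik (ENSMUSG00000085295) exon 3 at 2.72 and 3.63 at 24 h. At 48 h, Cald1 (ENSMUSG00000029761), the actin-binding protein caldesmon, was gained in exon 8 at chr6:34732617-34732851 at folds of 2.80 and 6.91 on 73 and 76 fragments over an input coverage of 7 and 2. Kif5b (ENSMUSG00000006740), a kinesin heavy chain, had exon 12 at 2.81 and 4.26, and Epb41l4aos (ENSMUSG00000087590), a long noncoding RNA, exon 1 at 3.56 and 4.91. The −log10 q was 0 and 0.493 for Kif5b and 0.043 and 1.26 for Epb41l4aos, so neither passed a q of 0.05 in any list. Cald1 passed it in 48 h list 2 only. Among the 24 h gains, Anxa5 and Fnip2 passed it in both 24 h lists. Ssb exon 4, Anp32e and 4930430E12Rik passed it in 24 h list 2 but not in 24 h list 1.

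The 5 named losses at 1 later time lay on genes of cytoskeletal, membrane-bound and nuclear proteins. Myh9 exon 26 at chr15:77656021-77656239 had folds of 2.31 and 2.94 at 0 h on 151 and 117 fragments, none at 24 h, and 5.10 in 48 h list 1 on 101. Hnrnpa2b1 (ENSMUSG00000004980), a nuclear RNA-binding protein, had exon 3 at 2.60 and 2.51 at 0 h and 2.86 in 24 h list 1, and no peak at 48 h. Marcks (ENSMUSG00000069662), a membrane-bound substrate of protein kinase C, had a region at exon 1 in 0 h list 1 at 2.65, centred in the 5′ UTR in 0 h list 2 and 24 h list 1. Sfr1 (ENSMUSG00000025066), a DNA recombination factor, had exon 3 at 4.83 and 2.44 at 0 h and 2.72 and 2.50 at 24 h, and no peak at 48 h. Anp32b (ENSMUSG00000028333), a nuclear acidic protein, had exon 5 at 3.22 and 3.75 in the 0 h lists, none in the 24 h lists, and 3.95 and 2.63 in the 48 h lists.

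**Figure D5:**
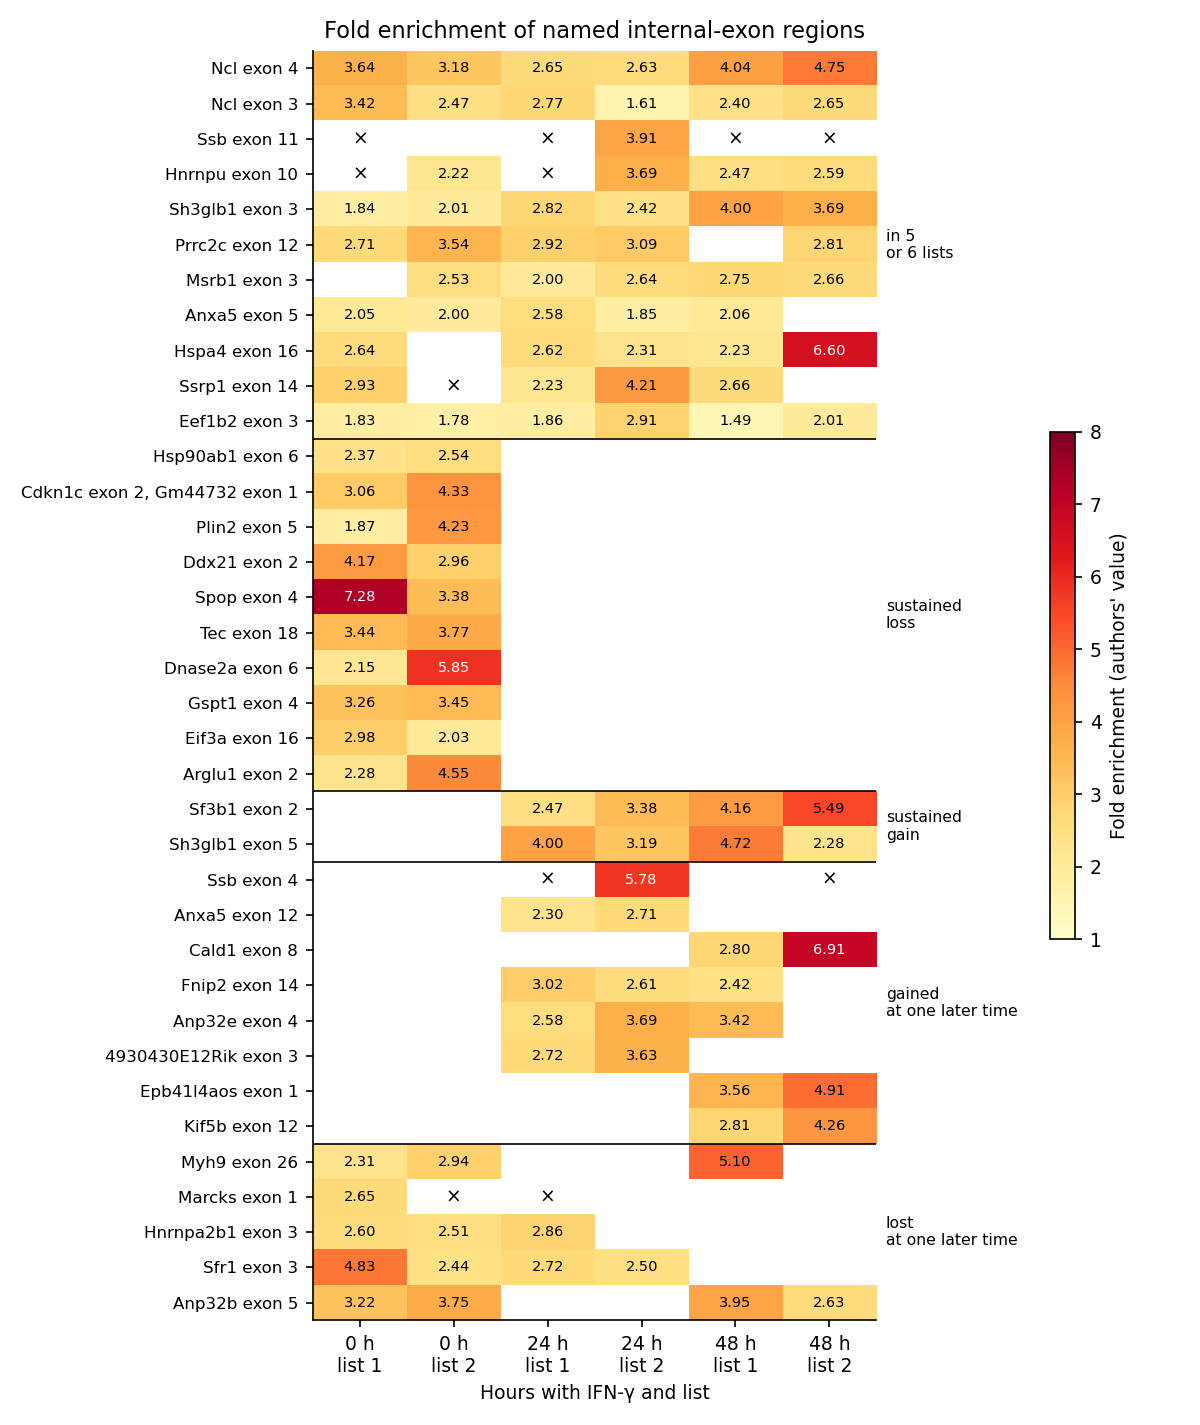
The grid gives the authors' fold enrichment of the named internal-exon regions (rows, in 5 groups by their pattern) in each of the 6 lists (columns), with colour from 1 to 8. An empty cell is a list with no peak on the region and a cross a list whose peak there was centred outside an internal exon, and the sustained losses fill the 0 h columns only.

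The highest folds belonged to peaks of little input coverage. In 0 h list 1 they were Rock1 exon 16, Ythdc1 exon 3 and Spop exon 4, at folds of 8.14, 7.53 and 7.28. Rock1 (ENSMUSG00000024290) is a kinase of actomyosin contraction, and its summit held 35 fragments over an input coverage of 1. Ythdc1 (ENSMUSG00000035851) is the nuclear reader of m6A, another mark of messenger RNA, and had its exon 3 at 4.00 in 48 h list 2 and 2.75 in 0 h list 2 as well. In 0 h list 2 they were Atrx exon 15, Rps15 exon 2 and Eif5b exon 10, at 7.05, 7.04 and 6.79, and Eif5b (ENSMUSG00000026083), a factor of ribosomal subunit joining, was also held by 0 h list 1, 24 h list 1 and 48 h list 2.

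In 24 h list 1 the splicing factor gene Rbm25 (ENSMUSG00000010608) had the highest internal-exon fold, 9.97, in exon 8 at chr12:83710686-83711000. That summit had 53 fragments over an input coverage of 0.666, against 75 and 45 fragments over 6 and 3 in the 0 h lists, at folds of 4.82 and 5.52, and 62 over 4 in 48 h list 1, at a fold of 3.83. The summit with the highest fold thus had the lowest input coverage of the 4. Kdm5a exon 27, of a histone demethylase, followed at 9.27 and Uso1 exon 23, of a vesicle tether, at 6.32. In 24 h list 2 the 3 highest were Eprs exon 18 at 8.41, a transfer RNA synthetase, and Pum2 exon 6 and Sf3b1 exon 18, both at 7.26. In 48 h list 1 they were Srrm2 exon 2, Rnf20 exon 13 and Ywhaz exon 3, at 6.87, 6.81 and 6.80. In 48 h list 2 they were Cald1 exon 8, Hspa4 exon 16 and a region of Zfp91 and Gm44505 in exon 6, at 6.91, 6.60 and 6.44.

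Genes with an internal-exon peak were found in 12 of 14 gene lists drawn up by function. Of the 2095 genes annotated to a peak of any kind, 415 (19.8%) had one in an internal exon, and differences between a list and that share were not tested. Of all 534 internal-exon regions, 30.9% were shared by 2 or more lists. Of all merged regions that could be called, 33.0% were sustained losses and 9.46% sustained gains. How many could be called is not given for the gene lists with such calls, so these calls are no result about a gene list. Of 35 chaperone genes 19 had a peak of any kind and 11 (57.9%) had one in an internal exon, in 17 regions, 9 of which were shared by 2 or more lists. They were Hsp90ab1, Hspa4, Hspa4l, Hspa9, Hspd1, Stip1, Dnaja2 and the chaperonin genes Cct2, Cct6a, Cct8 and Tcp1, with sustained losses in Hsp90ab1 and Dnaja2. Of 41 splicing factor genes 28 had a peak and 12 (42.9%) an internal-exon peak, in 18 regions, among them Sfpq, Srrm2, Rbm25, Hnrnpm and Sf3b1, with 0 sustained losses and 1 sustained gain. Of 35 translation factor genes 17 had a peak and 9 (52.9%) an internal-exon peak, in 18 regions, with sustained losses in Gspt1 and Eif3a. Of 34 nucleolar genes 9 had a peak and 6 (66.7%) an internal-exon peak, namely Ncl, Ddx21, Utp14a, Bms1, Gnl3 and Nop14, and of 46 cytoskeleton genes 20 had a peak and 9 (45%) an internal-exon peak.

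Of 62 interferon and antigen presentation genes 15 had a peak, and 2 (13.3%) had one in an internal exon. These were Ifi207 exon 5 in 48 h list 1, at a fold of 3.41, and Ifi30 exon 5 in 0 h list 1, at 2.66 and a q of 1. Of 40 genes of inflammation and NF-κB signalling 13 had a peak and 4 (30.8%) an internal-exon peak. Nfkbia, the inhibitor that holds NF-κB in the cytoplasm, had exon 5 in 24 h list 2 at a fold of 3.50 and exon 1 in 24 h list 1 at 5.15. Rel exon 3 and Rela exon 8, of the NF-κB subunits, were each in 1 list at 24 h at a fold of 3.38 and a q of 1, and Tnfaip2 exon 3 in 0 h list 1 at 2.56. None of these 5 regions was held by 2 lists, so none could be called lost or gained.

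In the other lists the share was 0% to 33.3% of the genes with a peak. Of 78 ribosomal protein genes 14 had a peak and 3 an internal-exon peak, Rps15, Rps3a1 and Rps3, and of 40 lysosome genes 17 had a peak and 3 an internal-exon peak, Atp6v1h, Ctss and Scarb2. Ctss, the cysteine protease cathepsin S of antigen processing, was counted in the lysosome list and not in the interferon and antigen presentation list. It had 4 regions in exons 3, 4, 5 and 7, and its exon 3 was held by 24 h list 2 and both 48 h lists. Of 36 transcription and chromatin genes 18 had a peak and 6 an internal-exon peak. Of 29 RNA modification genes 8 had a peak and 2 an internal-exon peak, Ythdc1 and Zc3h13, and of 41 surface receptor genes 14 had a peak and 1 an internal-exon peak, Clec4e exon 2 in 48 h list 1 at a fold of 3.75. Of 18 glycolysis genes 3 had a peak and 0 an internal-exon peak, and of the 13 mitochondrially encoded genes, which have no introns, 7 had a peak and 0 an internal-exon peak.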

How the data were processed

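The submitters' processing notes name the build GRCm39 with MACS2 2.1.0 and BWA 0.7.12, with no role or setting given in the sources used here. The aligner BWA places no read over a splice junction, so fragments over exon borders may be missing, and its part in the widths was not tested. Fold enrichment is the authors' ratio at the summit, and p and q are the authors' −log10 values, per the file headers. Peaks were called per list, and the control library is not named. Starts are printed as deposited, whether they count from 0 or 1 is not stated. Whole pull-down fragments, times 1 factor per list (0.259 to 0.468), reproduced fold and p at 100% of the summits, within 0.005 of −log10 p, assuming that fold adds 1 to both signals and that p is a Poisson tail, and the recovery was tested on simulated data. A fraction of a factor can match as well, so the largest matching factor was taken. The fragments and the pull-down depth rest on that choice. Simulated summits had fewer fragments and less input coverage than the largest summits here. Total RNA was not analysed here.

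Times were compared over lists with exact permutation tests, two-sided (smallest p 0.333 for 2 against 2, 0.067 for 2 against 4), an exact Jonckheere-Terpstra trend test, and exact sign flips over the 6 lists, with Benjamini-Hochberg adjustment over 15 tests between times and 6 within lists. The within-list tests of fragments, input coverage, percentile and q were added after the data were seen. The members and gene lists were chosen with earlier results of these data known. Named regions followed a rule on the mean percentile of −log10 p over the lists holding a region: those in 5 or 6 lists, the 10 highest-ranked sustained losses, the sustained gains filled up to 10 with other gains, the 5 highest-ranked losses at 1 later time, the 3 highest folds of a list, the 5 genes with most regions, the 5 highest exon numbers, and members of the gene lists. Gene types were looked up by symbol in RefSeq (GRCm38.p6), whose coordinates were not used. A planned search for sequence motifs was not run, and relative position along the gene, known for too few regions, was not used. Python 3.11.15, pandas 2.3.3, numpy 2.4.6 and scipy 1.17.1 were used.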

Additional observations from a re-analysis of the deposited data

How the results depend on the processing

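Limits first: with 2 lists per time no comparison of single times could reach a p under 0.05, and the low fragment counts of internal-exon peaks make presence in a list uncertain. The input was shallower at the later times by the estimate from its lowest coverage. The share of internal-exon peaks at 24 h minus 0 h was positive under every alternative run, between 1.17 points at a q of 1e-05 or less and 16.7 points at a fold of 4 or more. At 48 h minus 0 h it turned to -0.209 points at a q of 0.05 or less and -0.464 at 1e-05 or less, and leaving out 1 list gave -2.02 (without 48 h list 1) to 5.37 points (without 48 h list 2). The log2 number of both later times against 0 h, -0.17 as deposited, became -0.561 at a q of 0.05 or less, -1.28 at 1e-05 or less (exact permutation p = 0.067, the smallest possible), 0.37 at a fold of 4 or more, 0.962 at equal list length and 0.189 at matched input coverage, with -0.275 to 0.0238 when 1 list was left out, the positive value without 48 h list 2. The log2 number at 24 h against 0 h, 0.10 as deposited, became -0.188 at a q of 0.05 or less and -1.11 at 1e-05 or less, and that at 48 h, -0.51 as deposited, became -1.07 and -1.49 at these thresholds, 0.13 at a fold of 4 or more, 0.683 at equal list length and 0.129 at matched input coverage. Equal list length takes most peaks from the 0 h lists, where internal-exon peaks rank low by p, so its positive values are no result about time. The log2 fold difference from other peaks passed the test as a mean (0.0546) and under both q thresholds, 0.05 (0.377) and 1e-05 (0.482). A peak on few fragments passes a q threshold only at a high fold, so the threshold bears on these 2 values, and how far was not tested. With strength measured as the percentile of −log10 p the difference was -18.7. The width difference no longer passed at a q of 0.05 or less (-18.4 bases) and at 1e-05 or less (-4.75 bases), still passed at a fold of 4 or more (-24.8 bases), and was -48.9 to -45.1 bases with 1 list left out, where 5 lists cannot go below an exact permutation p of 0.062. Sustained losses numbered 4 at a q of 0.05 or less, 3 at 1e-05 or less, 0 at a fold of 4 or more, 6 at equal list length and 7 at matched input coverage, and 17 to 82 with 1 list left out, the highest without 0 h list 1 (82) and 0 h list 2 (78), since presence in 1 list then sufficed. Losses against 0 h outnumbered gains as deposited (23 beside 14 for 24 h, 25 beside 10 for 48 h) but not at equal list length (9 beside 19, 10 beside 15), and at matched input coverage only for 24 h (10 beside 8, 13 beside 14). Counts over all regions are not given at these alternative settings, so the turn is no result about internal exons. Sustained gains numbered 0 at a q of 1e-05 or less and at a fold of 4 or more, 5 at equal list length, and 3 to 5 with 1 list left out. Internal-exon regions in 2 or more lists were 14.7% at a fold of 4 or more, where the share over all regions is not given. Where no reason is given, the cause was not tested. Over all alternatives, 206 values kept their direction and side of the threshold or stayed close, 73 moved by over 1.5 times or by more than the spread between lists, 13 changed sign, 8 no longer passed their test and 3 newly passed it. No paired analysis was possible because the lists name no sample and the sample numbers run on over the groups.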
